A study of Mus musculus with 2 samples.

Results

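The genes described here are 43 antioxidant and glutathione genes, which keep reactive oxygen species in check in blood stem cells. They were chosen by symbol, as the named enzymes and regulators of these pathways, and not by their measured values. All 43 had at least 1 probe on the array, among 22554 genes that could be named. Superoxide dismutases turn superoxide into hydrogen peroxide, and catalase, glutathione peroxidases and peroxiredoxins then remove the peroxide. The glutathione peroxidases and peroxiredoxins draw electrons from glutathione and thioredoxin, which are reduced again at the expense of NADPH. Glutathione transferases couple glutathione to toxic products of oxidation. The transcription factor Nrf2 turns on many of these genes once it escapes its inhibitor Keap1. In hematopoietic stem cells, a rise of reactive oxygen species activates p38MAPK and is linked to loss of quiescence, which is why redox genes are of interest in cells that lack p38α.

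RNA came from long-term hematopoietic stem cells (LT-HSCs) of the bone marrow of 2-year-old C57BL/6J mice, sorted as CD150+CD48-Flt3-CD34- LSK cells (lineage-negative, Sca-1+, c-Kit+), and by the methods also as CD41-. In p38αΔ/Δ mice, tamoxifen at 50 to 60 weeks of age activated CAG-CreERT2 to delete the floxed p38α alleles. The cells were taken at 2 years of age. By genomic PCR of peripheral blood cells, the paper reports p38α as lower in such mice, and not as absent. The wild-type (WT, p38α+/+) controls were of the same age, carried the same p38αfl/fl alleles without Cre and had also received tamoxifen. The CAG promoter is active in nearly all tissues, so the deletion was not limited to HSCs. There was 1 single-colour Agilent array per genotype, both on the same slide, and the number of mice behind an array is not given in the sources used here. No difference below therefore has a replicate check or a p-value, and genotype cannot be told apart from the mouse, the sort and the labelling.

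A level below is the log2 signal of a probe minus the 75th percentile of its array, and a difference is the level on the array labelled p38αΔ/Δ minus the level on the WT array. The brightest probe stood for a gene. Of 59305 spots that were not controls, 68.1% on the WT array and 69.2% on the array labelled p38αΔ/Δ were well above background, and none was saturated. Probes printed on several spots gave a scale for the measurement alone: a difference had a standard deviation of 0.083 above level 2, 0.12 between levels -2 and 2, and 0.32 below -2. *Mapk14*, which encodes p38α, had levels of 2.34 on the WT array and 2.31 on the array labelled p38αΔ/Δ, and its other probe gave 2.08 and 2.02. The targeted gene thus did not check the labels, and every direction rests on the labels. Whether these probes lie in the deleted exons, and how complete the deletion was in the sorted cells, is not known here. LT-HSC markers were all well above background on both arrays, and 13 of 14 were lower on the array labelled p38αΔ/Δ, with a median difference of -0.54. Over all genes measured on both arrays, 53.2% were lower and the median was -0.038. Of markers measured on both arrays, 8 of 10 for neutrophils (median 1.40) and 6 of 6 for B cells (0.59) were higher on the array labelled p38αΔ/Δ. So were 5 of 6 for T and NK cells (0.59) and 5 of 7 for megakaryocytes (0.47). Erythroid markers (5 of 8 higher, 0.26) and monocyte and macrophage markers (4 of 7 higher, 0.068) went both ways. Of the genes whose products the sort excludes, *Cd48* differed by 1.37, *Flt3* by 0.36 and *Cd34* by -0.15. In bulk RNA, fewer cells of a type and less RNA per cell cannot be told apart, and the part of these cell type markers in the results was not tested.

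Antioxidant and glutathione genes were mostly lower on the array labelled p38αΔ/Δ. Of the 43, 42 were measured (well above background on 1 array or both, a signal that is not being called too dim), 30 of them lower and 12 higher, with a median difference of -0.35 (1.27-fold lower). Over all 17190 named genes measured, 52.4% were lower and the median was -0.031. At least 1.5-fold lower were 17 of the 42 (40.5%), against 15.4% of all genes, and at least 1.5-fold higher were 2 (4.76%), against 12.7%. At least 2-fold lower were *Gpx3*, *Gpx4*, *Gstp1*, *Gclm* and *Srxn1* (11.9%, against 6.62%), and at least 2-fold higher were *Prdx1* and *Cybb* (4.76%, against 4.11%). The extracellular superoxide dismutase *Sod3* was too dim to measure on both arrays and has no difference. *Gpx3*, *Gclm* and *Gsta4* were well above background on the WT array alone, so they could only come out lower. Without them, 27 of the 39 genes measured on both arrays were lower, 14 at least 1.5-fold, and the median was -0.26, beside 53.2% lower, 13.7% at least 1.5-fold lower and a median of -0.038 over all genes measured on both.

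**Figure D1:**
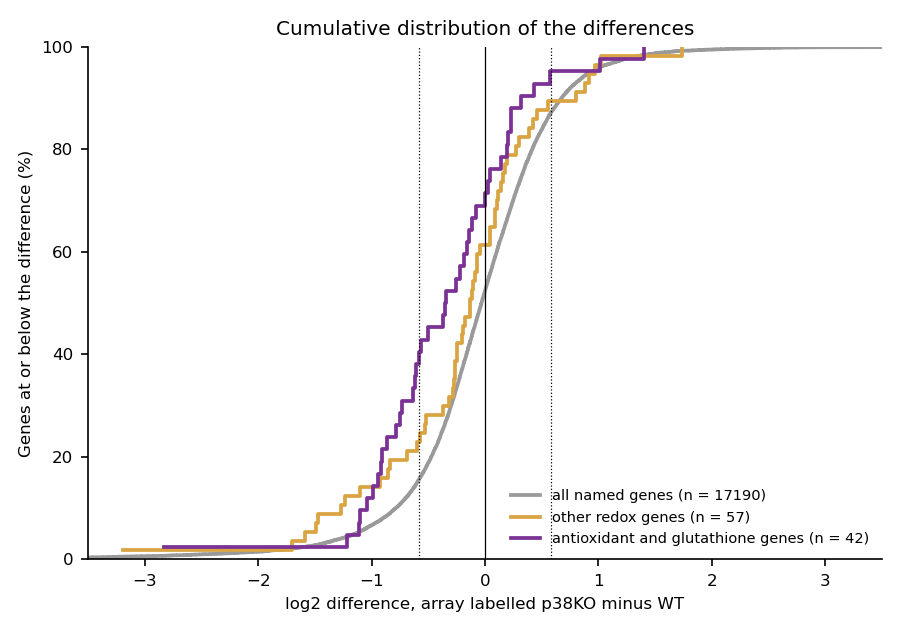
Cumulative share of genes (vertical axis, percent) at or below each log2 difference between the array labelled p38αΔ/Δ and the WT array (horizontal axis), for 42 antioxidant and glutathione genes, 57 other redox genes and all 17190 named genes measured. Dotted lines mark 1.5-fold, and a gene with a dim side is drawn at its bound. The curve of the antioxidant and glutathione genes lies to the left of that of all genes over most of its length, with medians of -0.35 and -0.031.

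The glutathione peroxidases, which spend glutathione to reduce peroxides, held the largest differences among the lower genes. *Gpx4*, the enzyme that reduces lipid peroxides within membranes, stood at 4.61 on the WT array and 3.40 on the array labelled p38αΔ/Δ, which was 2.32-fold lower. *Gpx1*, the main cytosolic peroxidase, went from 7.93 to 7.32 (1.53-fold lower). *Gpx3*, the secreted plasma form, had a level of -1.90 on the WT array and a signal too dim to measure on the other, so it was at least 7.09-fold lower. The endoplasmic reticulum members behaved otherwise: *Gpx7* stood at -3.44 on both arrays, and *Gpx8* was higher by 0.58 (-0.66 and -0.087). Of the 4 genes measured on both arrays, *Gpx4* and *Gpx1* were lower by over 1.5-fold, *Gpx7* had the same level to 2 decimals, and the median was -0.31. The size for *Gpx3* depends on how background was removed, and with normexp correction its difference was -0.55.

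*Gpx4* and *Gstp1* carried the largest differences among lower genes measured on both arrays, and their 60-base probes are shown here as the array carries them, 5′ to 3′ on the gene's strand, with mm9 coordinates of the array design. The *Gpx4* probe lies at chr10:79518691-79518842 on the + strand. The *Gstp1* probes lie at chr19:4035908-4036723 and chr19:4037306-4037365 on the - strand. The first of each gene covers more genome than its 60 bases. None of the 3 shares a run of 16 bases with a probe of another gene.
Gpx4: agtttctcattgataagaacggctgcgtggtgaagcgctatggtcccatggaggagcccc
Gstp1, brightest: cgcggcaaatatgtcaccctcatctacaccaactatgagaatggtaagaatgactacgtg
Gstp1, other: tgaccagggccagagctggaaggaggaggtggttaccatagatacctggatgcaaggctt

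Of the glutathione transferases, 7 of the 8 measured on both arrays were lower, 5 of them at least 1.5-fold, with a median of -0.67. Over all genes measured on both, 53.2% were lower and 13.7% at least 1.5-fold lower. *Gstp1*, of the Pi class, stood at 2.16 on the WT array and 1.06 on the array labelled p38αΔ/Δ (2.15-fold lower). Its other probe gave 0.89 and -0.10, so the sequences shown above differed by -1.11 and -0.997. *Gstm1*, of the Mu class, went from 3.96 to 3.01 (1.93-fold lower). *Gstt1*, of the Theta class, went from 1.97 to 1.06 (1.87-fold lower). These 3 genes had levels well clear of background on both arrays. *Gsta4*, an Alpha class enzyme that handles aldehydes from oxidized lipids, had a level of -3.73 on the WT array and was too dim on the other, which makes it at least 1.99-fold lower. Its probe was printed many times, and the log2 signal had a standard deviation of 0.23 over 8 WT spots and 0.79 over 10 spots of the other array. With normexp correction *Gsta4* differed by 0.054, so its direction was not kept.

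The remaining transferases differed less. The Mu class gene *Gstm5* went from 0.92 to 0.34 (1.501-fold lower), and *Gstm2* differed by -0.57. *Mgst1*, a membrane-bound transferase of the endoplasmic reticulum and mitochondria, went from -1.76 to -2.51 (1.68-fold lower), but its dimmer probe read -4.35 and -4.33. With normexp correction *Mgst1* differed by -0.14, under 1.5-fold. *Mgst3* differed by -0.35, and *Gsto1*, of the Omega class, was the exception, higher by 0.32. Mu class genes are close paralogs, and probes could read each other's transcripts. The longest run shared by probes of different Mu class genes was 11 of 60 bases. Probes were compared with probes and not with transcripts, so whether a probe reads a paralog was not tested. Over all 7 Mu class genes on the array, members and others, 6 were lower and the median was -0.92, beside 53.2% lower over all genes measured on both arrays. A *Gstm1* probe that the design places on chromosome 5, while the gene lies on chromosome 3, differed by -0.53.

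Of the enzymes that make and recycle glutathione, 2 of the 3 measured on both arrays were lower, beside 53.2% of all genes measured on both. Their median was -0.34, and the last enzyme was measured on the WT array alone. The subunits of glutamate-cysteine ligase, the rate-limiting step of synthesis, differed from each other. The catalytic subunit *Gclc* stood at 1.96 on the WT array and 2.17 on the array labelled p38αΔ/Δ, higher by 0.20. The modifier subunit *Gclm* had a level of -3.62 on the WT array and was too dim on the other (at least 2.15-fold lower). That WT level is close to the floor of -4.65, the lowest signal well above background there, and with normexp correction the difference of *Gclm* was 0.011. *Gss*, glutathione synthetase, went from 1.27 to 0.49 (1.72-fold lower). *Gsr*, the reductase that restores oxidized glutathione, went from 3.05 to 2.71, and its probes differed by -0.34 and -0.30. The values thus held a lower *Gss* and a smaller difference at *Gsr*, with *Gclc* in the other direction.

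**Figure D2:**
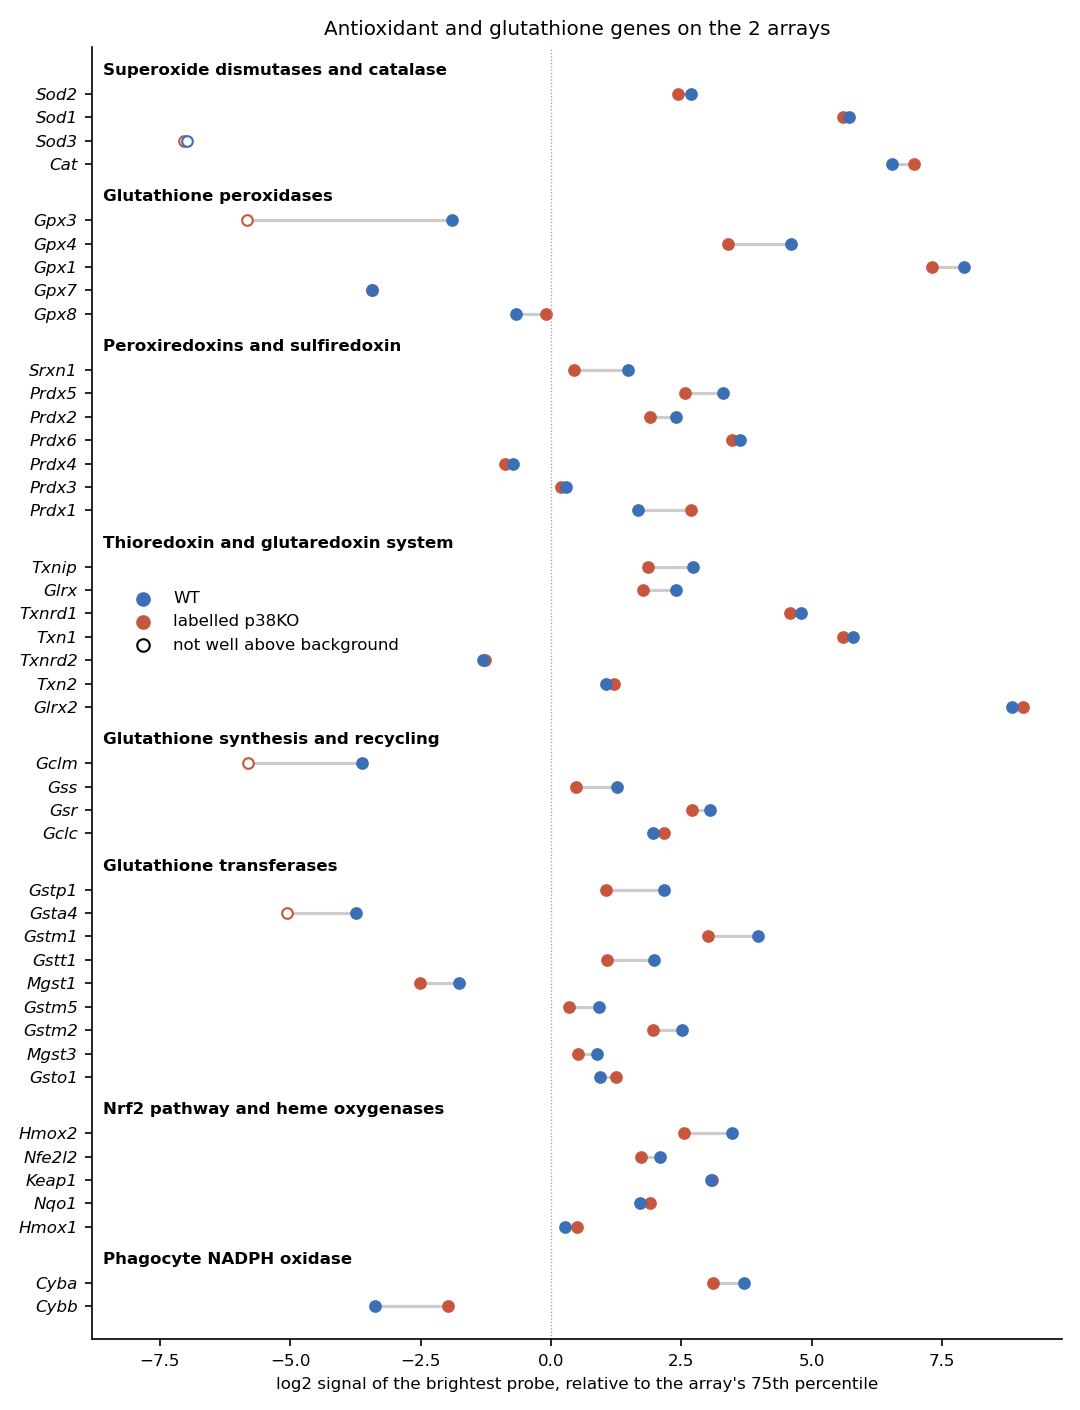
Level of each of the 43 genes on the WT array (blue) and on the array labelled p38αΔ/Δ (red), as the log2 signal of the brightest probe relative to the 75th percentile of the array (horizontal axis), grouped by role. Open circles were not well above background. *Gpx4* went from 4.61 to 3.40 and *Gstp1* from 2.16 to 1.06, while *Prdx1* went from 1.67 to 2.69. Levels of different probes are not comparable as amounts, so only the 2 points of a gene compare.

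Superoxide dismutases and catalase differed little or depended on the probe. *Sod1*, the cytosolic dismutase, stood at 5.71 on the WT array and 5.60 on the array labelled p38αΔ/Δ (-0.12). *Sod2*, the mitochondrial form, stood at 2.68 and 2.43 (-0.26). *Cat* read 6.53 and 6.97 at its brightest probe (higher by 0.43) but 1.28 and 0.76 at its other probe (-0.52). The bright *Cat* probe holds a repeat of the bases CA, which also occurs in probes of other genes. The brightest probe of *Glrx2* shares a run with other genes as well. Stretches of both are shown because the direction of these genes turns on them, with capitals marking 16 bases also found in probes of 85 other genes for *Cat* and of 8 for *Glrx2*. The *Cat* probe lies at chr2:103294487-103294546 on the - strand and the *Glrx2* probe at chr1:145596708-145596767 on the + strand (mm9).
Cat, probe bases 27 to 56: cacatacCACACACACACACACAtgcaata
Glrx2, probe bases 12 to 41: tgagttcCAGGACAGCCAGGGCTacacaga

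Of 66 probes for the 43 genes, 3 held a run of 16 bases found in probes of more than 5 other genes, as did 1.17% of the 31777 named probes. The last of the 3 is a *Txn2* probe too dim on both arrays. With the brightest probe free of such a run in place of these, 32 of 42 genes were lower (76.2%), 18 at least 1.5-fold. The median was -0.44. Only probes of the 43 genes were left out under that rule, and such probes of other genes were kept. The shares over all genes, 52.4% lower and 15.4% at least 1.5-fold lower, could therefore hardly move and were not made by a like rule. *Gpx3*, *Gclm* and *Gsta4*, which could only come out lower, are among the 32. That rule was added after the values had been seen.

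In the thioredoxin and glutaredoxin system, the genes with large differences were an inhibitor and a glutaredoxin. *Txnip*, which binds thioredoxin and blocks it, went from 2.72 on the WT array to 1.85 on the array labelled p38αΔ/Δ (1.82-fold lower), and its other probe differed by -0.59. *Glrx*, the cytosolic glutaredoxin, went from 2.40 to 1.76 (1.56-fold lower). The cytosolic pair that does most of the work differed less. *Txn1*, thioredoxin, stood at 5.79 and 5.61 (-0.18), and *Txnrd1*, its reductase, at 4.80 and 4.58 (-0.22). Among mitochondrial members, *Txnrd2* differed by 0.042 and *Txn2* by 0.14 (1.06 and 1.21), but a dimmer *Txn2* probe read -1.61 and -2.35. *Glrx2* read 8.83 and 9.06 at the probe with the shared run, 1.41 and 0.71 at the next and -2.56 and -2.79 at the last. Both *Glrx2* probes without a shared run were lower, and the probe with it was higher. In all, 4 of 7 genes were lower, near the 53.2% of all genes measured on both arrays, and the median was -0.18.

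Peroxiredoxins were lower in 5 of 6 genes, mostly by little, beside 53.2% lower over all genes measured on both arrays. *Prdx5*, found in mitochondria and peroxisomes, went from 3.31 to 2.57 (1.66-fold lower), and its other probe from 3.24 to 2.49. The cytosolic *Prdx2* differed by -0.50, *Prdx6* by -0.16, *Prdx4* of the endoplasmic reticulum by -0.14 and the mitochondrial *Prdx3* by -0.083. The *Prdx3* probe was printed repeatedly, with a standard deviation over spots of 0.097 on the WT array and 0.053 on the other. *Prdx6* had 4 probes, all lower, from -0.16 to -2.34, so its size depended on the probe. *Srxn1*, sulfiredoxin, which restores overoxidized peroxiredoxins, went from 1.48 to 0.45 (2.05-fold lower).

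*Prdx1*, a cytosolic peroxiredoxin, gave opposite answers from its probes. The probe that stood for the gene read 1.67 on the WT array and 2.69 on the array labelled p38αΔ/Δ (2.02-fold higher), and the other read 1.86 and 0.78, lower by 1.08. The differences were thus of similar size and opposite sign. The first probe was the brightest over both arrays only through its signal on the array labelled p38αΔ/Δ, so the difference itself decided which probe placed *Prdx1* among the higher genes. The mean of the probes differed by -0.0345. The first 30 bases of each are shown to tell them apart, at chr4:116371818-116371877 and chr4:116372422-116372481 (mm9, + strand), and neither probe shares a run of 16 bases with another gene's.
Prdx1, higher: ctgatgtcaataagagcaaagagtatttct
Prdx1, lower: aggatctacttttctagtgctggttttata

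**Figure D3:**
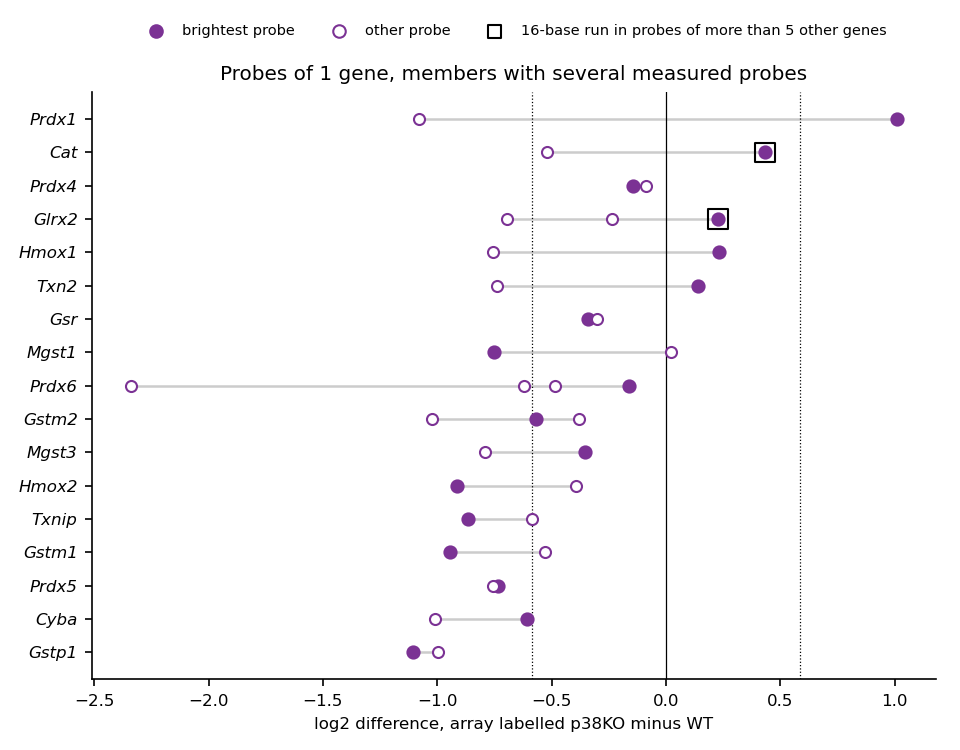
Log2 difference between the array labelled p38αΔ/Δ and the WT array (horizontal axis) for each probe of the 17 genes with several probes measured on both arrays. Filled points are the brightest probe, open points the others, squares mark probes with a run of 16 bases found in probes of more than 5 other genes, and dotted lines mark 1.5-fold. In 11 genes every probe was lower, a count not made over all genes, and *Prdx1* spans from -1.08 to 1.01.

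Of 66 probes for the 43 genes 60 were measured on both arrays, 47 of them lower (78.3%) and 13 higher, with a median of -0.49. Over all 21401 named probes measured on both, 54.9% were lower and the median was -0.062. In 11 of the 17 genes with several such probes all probes were lower, and in none were all higher. The same count was not made over all genes with several probes, so it has no background here. In the other 6, *Cat*, *Glrx2*, *Hmox1*, *Mgst1*, *Prdx1* and *Txn2*, the probes pointed both ways. When the probes of a gene were averaged, 35 genes were lower (83.3%) and 7 higher, beside 54.6% lower over all genes under the same rule. *Gpx3*, *Gclm* and *Gsta4*, which could only come out lower, are among the 35.

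The Nrf2 pathway and the heme oxygenases showed no common direction, with 2 genes lower, 3 higher and a median of 0.025. *Nfe2l2*, which encodes Nrf2, stood at 2.09 on the WT array and 1.72 on the array labelled p38αΔ/Δ (-0.37). *Keap1* stood at 3.06 and 3.09. Of the genes best known as Nrf2 targets, the quinone reductase *Nqo1* stood at 1.71 and 1.91 (0.19) and the inducible heme oxygenase *Hmox1* at 0.27 and 0.50 (0.23). The second *Hmox1* probe read -2.57 and -3.32, in the other direction. The constitutive heme oxygenase *Hmox2* went from 3.47 to 2.56 (1.88-fold lower), and its second probe differed by -0.39. Of other known Nrf2 targets among the genes, *Srxn1* was lower as given above, and *Txnrd1* and *Gclc* were within 1.5-fold. *Gclm* was measured on the WT array alone, near the floor, and its direction was not kept with normexp correction.

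Nrf2 binds the antioxidant response element, whose core reads TGACNNNGC (N is any base). Promoters of 37 of the 43 genes were found in RefSeq sequence of GRCm38.p6, as 300 bases from 250 before to 50 after the start of the gene. The core, on either strand, was present in 8 of the 37 (21.6%), against 14.0% of 27025 genes with a promoter. The genes were *Gclm*, *Gstm5*, *Mgst1*, *Nfe2l2*, *Prdx1*, *Sod1*, *Srxn1* and *Txnrd1*. Of these 8, 7 were lower, with a median difference of -0.48. Of the 29 measured genes without a match, 20 were lower, with a median of -0.35. Over all genes measured, 52.4% were lower. *Gclm* among the 8 and *Gpx3* among the 29 were measured on the WT array alone and could only come out lower. The counts and medians of the groups are therefore not set against each other. The match in *Prdx1* overlaps the AP-1 motif TGANTCA, and no other did. A match is a run of letters and not a binding site, and its absence says only that the letters are not in these 300 bases.

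Matches in genes with large differences or opposed probes are shown here, 30 bases each on the strand of the gene, with the core in capitals (read on the opposite strand in all 4). *Gclm* holds it 134 bases before the start (chr3:122245413-122245442, + strand), *Mgst1* 56 before (chr6:138140461-138140490, + strand), *Prdx1* 133 before (chr4:116685456-116685485, + strand) and *Srxn1* 29 after (chr2:152105542-152105571, + strand), all in GRCm38.p6.
Gclm: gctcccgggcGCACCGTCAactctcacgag
Mgst1: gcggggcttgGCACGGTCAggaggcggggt
Prdx1: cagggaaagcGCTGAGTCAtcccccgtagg
Srxn1: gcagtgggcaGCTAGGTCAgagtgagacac

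*Cybb* and *Cyba* encode the membrane subunits of the phagocyte NADPH oxidase and make superoxide instead of removing it. *Cybb*, the catalytic subunit, stood at -3.38 on the WT array and -1.98 on the array labelled p38αΔ/Δ (2.64-fold higher). With normexp correction the *Cybb* difference was 0.54, under 1.5-fold. *Cyba*, its partner, went from 3.71 to 3.10 (1.52-fold lower), and its other probe differed by -1.01. The subunits of 1 enzyme thus differed in direction, and the *Cybb* level was low on both arrays. Neutrophils express this oxidase strongly. The summed signal of the 12 neutrophil markers, in multiples of the 75th percentile of an array, was 9.09 on the WT array and 27.1 on the other, and *Mmp8* and *Retnlg* were too dim on the WT array. The brightest neutrophil marker, *S100a9* (1.91 and 3.92), weighed most in that sum, and *Elane* (-1.41) and *Prtn3* (-0.48) were lower. The 8 monocyte and macrophage markers summed to 30.5 and 34.98, with *Ccr2* too dim on both. *Csf1r* alone (4.85 and 5.07) made most of that sum, while *Cd14* differed by 0.92 and *Lyz2* by -0.96. Such sums follow the brightest probes and are not amounts of cells. Whether such cells contributed to *Cybb* was not tested. Without *Cybb* and *Cyba*, 29 of 40 genes were lower, 16 at least 1.5-fold, with *Gpx3*, *Gclm* and *Gsta4* among them. Of the 37 measured on both arrays, 26 were lower, 13 at least 1.5-fold. Over all genes measured on both, 53.2% were lower, 13.7% at least 1.5-fold.

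**Figure D4:**
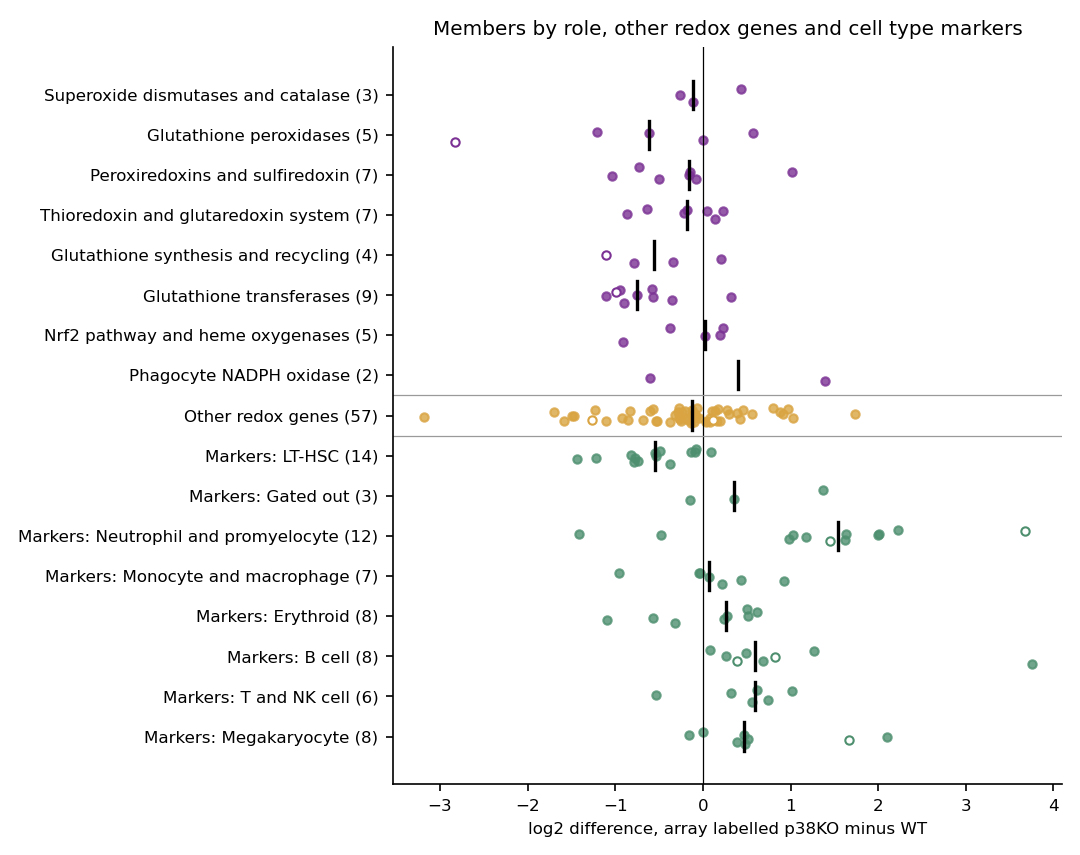
Log2 difference between the array labelled p38αΔ/Δ and the WT array (horizontal axis) for each measured gene, by role, for other redox genes and for cell type markers, with the number of genes in brackets. Points are genes, open points are bounds, black bars are medians, and points are spread vertically for visibility. With bounds included, the median was -0.75 for glutathione transferases, -0.54 for LT-HSC markers and 1.54 for neutrophil markers.

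Another 62 redox genes were listed from general knowledge, of which 61 had a probe. Of the 57 measured, 35 were lower (61.4%, against 52.4% of all genes) and 22 higher, with a median of -0.13. At least 1.5-fold lower were 13 (22.8%, against 15.4%) and at least 1.5-fold higher 6 (10.5%, against 12.7%). At least 2-fold lower were 8 (14.0%, against 6.62%). *Msrb3*, 1 of these 8, was measured on the WT array alone and could only come out lower. Among genes measured on both arrays, 7 of 55 were at least 2-fold lower. So were 3 of 39 antioxidant and glutathione genes and 5.02% of all genes. *Ggt1*, the gamma-glutamyltransferase that breaks down extracellular glutathione, went from -0.81 to -4.00 (9.12-fold lower), and with normexp correction it differed by -1.02. The NADPH-producing enzymes *Me1* (-1.11 to -2.81) and *Idh1* (-0.53 to -2.11) were 3.24-fold and 3.003-fold lower, or by -0.62 and -0.72 with normexp, while *Idh2*, *G6pdx* and *Pgd* differed by -0.12, -0.20 and 0.041. Lower transferases were *Gstm4* (-1.47, its other probe 0.33), *Gstt2* (-1.23, with normexp -0.24) and *Gstm3* (-1.11, or -0.59 as the mean of its probes). *Sqstm1*, an adaptor that can sequester Keap1, differed by -1.49 at its brightest probe and 2.42 at the other. Higher were *Gsto2* (1.74, with normexp 0.56) and *Mpo* (1.02), the myeloperoxidase of neutrophil granules, which is also among the neutrophil markers. *Slc7a11*, the cystine carrier that feeds glutathione synthesis, was too dim on both arrays.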

How the data were processed

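The authors deposited the scanner intensity of every spot of both arrays, from Agilent Feature Extraction 11.5.1.1, corrected for background but not normalized between arrays, and a table of log2 values for 35795 probes. Each column of that table equals the log2 signal minus a constant, 7.16 for WT and 6.84 for p38αΔ/Δ. RNA work and normalization were outsourced per the methods. Here, control and flagged spots were left out (19 of 55681 probes), spots of a probe were averaged as log2 intensity, and the 75th percentile of each array was subtracted. Of 55662 probes, 57.1% were named, through the symbol on the array or, failing that, an old symbol or RefSeq accession looked up in a GRCm38.p6 table. Where a gene was dim on 1 array, its level there was set no lower than the dimmest measurable signal of that array (-4.65 WT, -4.72 p38αΔ/Δ), and its fold is a lower bound. With 1 array per group no test was run, and the number of arrays limits the precision.

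Genes and lists were chosen with earlier results of these data known. Values on both arrays are given for genes at least 1.5-fold different or with only a bound, for central genes of each role and for genes whose probes disagree. Alternatives were quantile, median and loess (span 0.3) scaling, normexp (limma 3.58.1, R 4.3.3, offset 50), the authors' values, other filters and floors, and other probe rules. Calculations were tested on simulated data. Tables were handled in pandas 2.3.3 and numpy 2.4.6 under Python 3.11.15, loess came from statsmodels 0.14.6 and figures from matplotlib 3.10.9.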

Additional observations from a re-analysis of the deposited data

How the results depend on the processing

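With 1 array per genotype, no replicate could be left out, and levels near background limit what can be said of *Gpx3*, *Gclm*, *Gsta4*, *Mgst1* and *Cybb*. No paired analysis was possible because each group held 1 array and no test was run. Under the 10 alternatives fixed at the start, 66.7% to 83.3% of the antioxidant and glutathione genes were lower, beside 44.5% to 63.2% of all genes. The 63.2% came without the filter on dim probes. There, genes under the floors of both arrays (-4.65 WT, -4.72 p38αΔ/Δ), *Sod3* among them, count as lower through the floors alone. Under the other alternatives at most 54.6% of all genes were lower. Normexp shrank differences over all genes: 0.73% were at least 2-fold lower (6.62% without it) and 2.51% at least 1.5-fold higher (12.7%). Of the 42 genes, 3 were then at least 2-fold lower, 1 was higher by at least 1.5-fold and 0 by 2-fold, and *Gclm* and *Gsta4* turned to 0.011 and 0.054. Over other redox genes it left 2 at least 2-fold lower, 2 higher by at least 1.5-fold and 0 by 2-fold, and *Msrb3* turned to 0.033. With the authors' values, or genes measured on both arrays only, 3 of 39 genes were at least 2-fold lower (4.96% and 5.02% of all genes). When the probes of a gene were averaged, 7 genes were higher, 1 of them at least 1.5-fold and 2-fold, *Prdx1* turned to -0.0345 and *Sqstm1* to 0.47, and 5 other redox genes were at least 2-fold lower. Counting each of 60 probes, an alternative added after seeing the data, gave a median of -0.49, 47 lower and 26 at least 1.5-fold lower (43.3%, and 15.5% of all probes). Without *Cybb* and *Cyba*, also added later, 1 gene was at least 1.5-fold and 2-fold higher. Of the 19 genes at least 1.5-fold different, 16 kept their direction in every alternative run, and *Gclm*, *Gsta4* and *Prdx1* did not. Among the 16, *Gpx3*, *Gstm5*, *Mgst1* and *Cybb* came under 1.5-fold with normexp. *Cyba* did so with quantile (-0.53) and loess (-0.51) scaling, *Glrx* with loess (-0.57) and *Mgst1* with averaged probes (-0.37). *Gstm5* did so with quantile (-0.57), loess (-0.56), the authors' values (-0.58) and flagged spots kept (-0.5845) as well.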
